A study of Mus musculus with 10 samples.

Results

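The transcripts described here encode 10 proteins that detect foreign or misplaced nucleic acid, or that hold such detection in check: Ifih1, Dhx58, Mavs, Tlr3, Tlr7, Tlr9, Zbp1, Eif2ak2, Adar and Trex1. They were chosen by name as the proposed route from CDK4/6 inhibition to interferon, and all 10 were found among the 32830 genes of the deposited table. RNA came from ovarian cancer tissue of mice of WT genotype in 4 groups. Mice received PBS (n = 2), an inhibitor of the cell cycle kinases CDK4 and CDK6, called CDK4/6i in the treatment label and Abmea or Abema in titles and column names (n = 3), a PD1 antibody (n = 2), or inhibitor and antibody together, called the combination here (n = 3). The labels used here give no strain, age, tumour cell line, dose or day for any group, and nothing says that replicates were separate tumours of separate mice, so every p-value below reflects sample-to-sample spread that may be technical.

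Cells detect viral or misplaced self nucleic acid in the cytosol and in endosomes. In the cytosol, RNA helicases of the RIG-I-like family bind double-stranded RNA and signal through the mitochondrial adaptor MAVS, while toll-like receptors survey the endosome; both routes lead to interferon. Many sensors are themselves induced by interferon, so their transcripts can rise both before and after interferon signalling, and loss of DNA methylation with expression of endogenous retroelements is a known source of self double-stranded RNA in tumour cells.

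Interferon-induced genes often carry the interferon-stimulated response element, in which GAAA repeats are bound by IRF proteins. To show where such letters stand in these genes, 2 patterns were searched: GAAA repeats with any 2 bases between them, and GAAANGAAA (1 base between them). They were read on both strands from 250 bases before to 50 bases after the annotated starts, in RefSeq windows of GRCm38.p6. Windows were found for 7 of the 10 genes (10 windows, some genes having several starts): Ifih1, Mavs, Adar, Tlr3, Tlr9, Trex1 and Eif2ak2. The repeat with 2 bases between was present in 2 of the 10 windows against 3.44% of 32851 windows of all genes, and GAAANGAAA in 1 against 3.17%. The matches are written 5′ to 3′ on the strand of the gene, with the matching letters in capitals. A match is a description of letters and not evidence of binding.
Ifih1, chr2:62646206-62646235, minus strand, repeat with 2 bases between, from base 33 after the start: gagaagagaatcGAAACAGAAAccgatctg
Eif2ak2, chr17:78882535-78882564, minus strand, repeat with 2 bases between, from base 19 after the start: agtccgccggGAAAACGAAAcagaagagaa
Adar, chr3:89730736-89730765, plus strand, GAAANGAAA from base 29 after 1 of its starts, the only window of the 10 whose bases after the start were not found in a GENCODE M21 transcript of its gene: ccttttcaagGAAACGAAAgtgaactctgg

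Libraries held 25132208 to 36260856 reads assigned to genes and differed most in transcripts of neighbouring tissue. A list of 12 skeletal muscle genes took 10.4%, 9.24% and 10.3% of the reads of CDK4/6i replicates 1 and 2 and combination replicate 1, which are called muscle-rich below, and at most 1.59% of any other library (a list of 12 exocrine pancreas genes took 10.6% and 4.40% in the PD1 antibody libraries). These are shares of reads, and their counting error is small (95% Clopper-Pearson interval 10.39% to 10.42% for CDK4/6i replicate 1). In bulk tissue, fewer cells of a type and less RNA per cell cannot be told apart, and the part of muscle in the differences below was not measured. All 3 muscle-rich libraries came from inhibitor-treated mice and were also lower in pan-leukocyte level than the other 3 inhibitor-treated libraries, so leaving them out, or giving them a term, does not set muscle apart from leukocyte content. Values are RPKM, which divide reads by gene length and library total, so that levels of different genes can be set side by side. Averaged over the 10 libraries, Eif2ak2 was the most abundant of the 10 genes at 28.3 RPKM, followed by Zbp1 (19.5), Mavs (14.0), Adar (8.39), Trex1 (5.50), Ifih1 (5.20) and Dhx58 (4.76), and the toll-like receptors were lowest, with Tlr3 at 1.91, Tlr9 at 1.46 and Tlr7 at 1.13. The place of Zbp1 rests on combination replicates 2 and 3: its median over the libraries was 13.5 against 13.9 for Mavs, and in PBS Mavs averaged 18.1 and Zbp1 8.57.

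Ifih1 encodes MDA5, the helicase that binds long double-stranded RNA (GRCm38, chr2:62595798-62646255, minus strand, 17 merged exons). Its level was 2.82 and 4.27 RPKM in the PBS libraries, 2.20, 2.65 and 8.04 under the inhibitor, 4.24 and 4.01 under the antibody, and 3.95, 10.7 and 9.15 under the combination. Inhibitor replicate 3 and combination replicates 2 and 3 were the 3 highest libraries, and the ranges of all groups overlapped. Dhx58 encodes LGP2, a helicase without a signalling domain that tunes MDA5 and RIG-I (chr11:100694884-100704271, minus strand, 13 exons). Dhx58 stood at 1.11 and 3.43 RPKM with PBS, 2.10, 1.82 and 7.57 with the inhibitor, 3.15 and 2.00 with the antibody, and 4.35, 11.9 and 10.2 with the combination. All combination libraries lay above all PBS and all antibody libraries, while inhibitor replicate 3 lay above combination replicate 1. The combination mean was 3.88 times the PBS mean for Dhx58 and 2.23 times for Ifih1.

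Mavs, the adaptor through which MDA5 signals (chr2:131234063-131248025, plus strand, 9 exons), had a different profile. It stood at 12.6 and 23.6 RPKM with PBS, 9.52, 10.3 and 13.9 with the inhibitor, 12.4 and 13.8 with the antibody, and 14.2, 15.1 and 14.9 with the combination. The highest library was PBS replicate 2, and the PBS mean ± SD (18.1 ± 7.78, n = 2) spanned every combination and antibody value. The combination libraries differed little among themselves (14.7 ± 0.466, n = 3) and each lay above every inhibitor and antibody library. Between libraries the adaptor varied 2.48-fold, against 4.84-fold for Ifih1 and 10.7-fold for Dhx58.

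**Figure D1:**
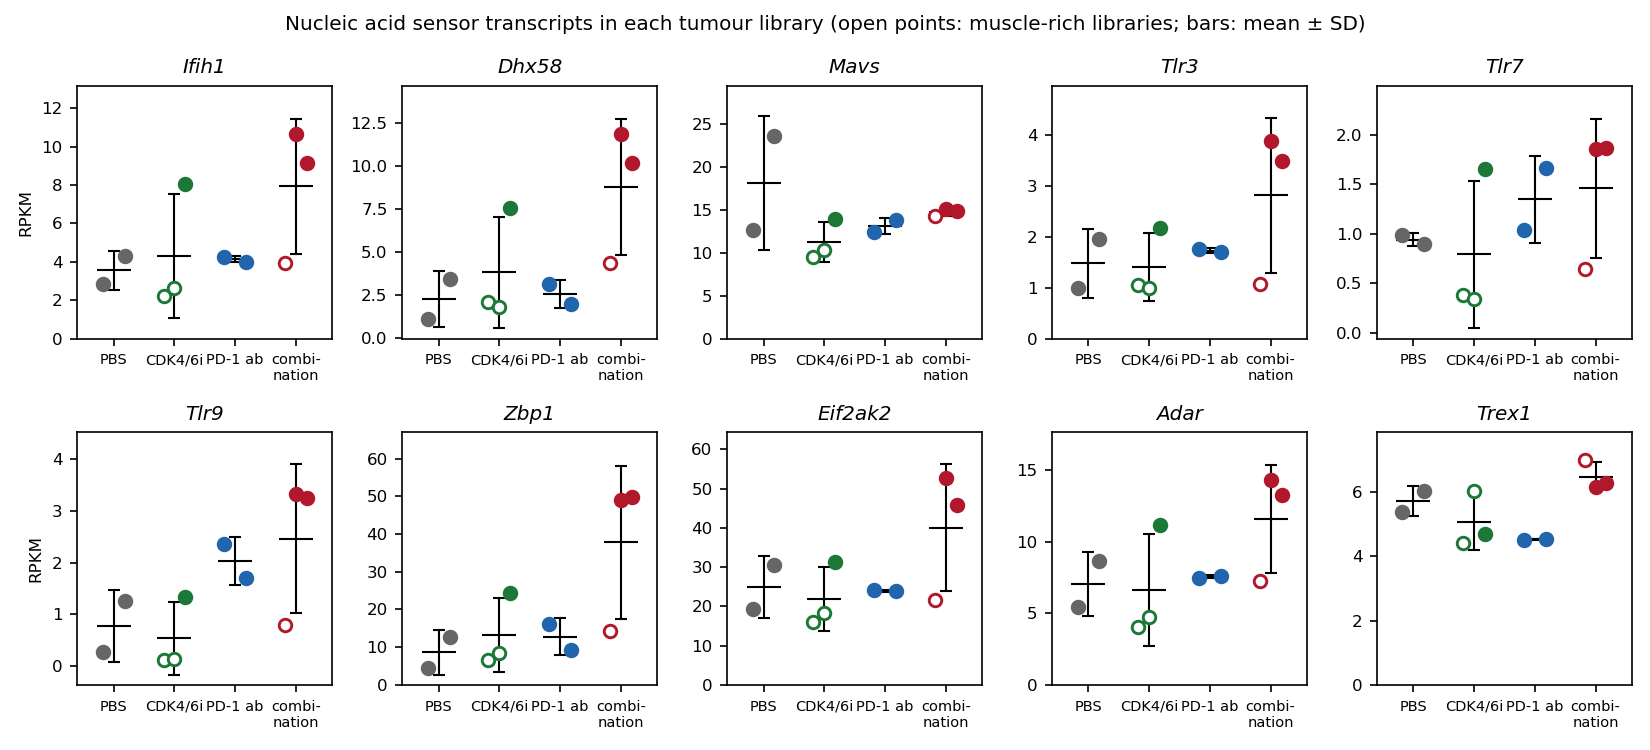
RPKM of each of the 10 genes (linear axis) in every library, by group, with group mean ± SD (PBS and PD1 antibody n = 2, CDK4/6i and combination n = 3). Open points are the muscle-rich libraries, which hold the lowest value of the inhibitor and combination groups in most panels; Trex1 is highest in an open point of the combination.

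Tlr3, the endosomal receptor for double-stranded RNA (chr8:45395665-45411080, minus strand, 8 exons), stood at 0.993 and 1.96 RPKM with PBS, 1.05, 0.991 and 2.18 with the inhibitor, 1.76 and 1.69 with the antibody, and 1.08, 3.88 and 3.48 with the combination. Combination replicate 1 was within the PBS range and the other two were the highest libraries. Tlr7, the receptor for single-stranded RNA on the X chromosome (chrX:167304929-167330558, minus strand, 6 exons), stood at 0.985 and 0.897 RPKM with PBS, 0.381, 0.340 and 1.65 with the inhibitor, 1.03 and 1.66 with the antibody, and 0.646, 1.86 and 1.87 with the combination. Here both antibody libraries lay above both PBS libraries, and the inhibitor and combination groups each had values on both sides of PBS. The reads behind Tlr7 numbered 35 to 277 per library.

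Tlr9, which binds unmethylated CpG DNA (chr9:106222598-106226883, plus strand, 2 exons), varied most of the 10, 26.1-fold from the lowest to the highest library. It stood at 0.275 and 1.26 RPKM with PBS, 0.128, 0.137 and 1.34 with the inhibitor, 2.35 and 1.70 with the antibody, and 0.797, 3.34 and 3.25 with the combination. The lowest value rested on 12 reads and the highest on 390, so the low end is loosely fixed. As for Tlr7, both antibody libraries lay above both PBS libraries. Inhibitor replicate 3 was 10.1 times the mean of replicates 1 and 2 for Tlr9, 4.58 times for Tlr7 and 2.13 times for Tlr3.

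Zbp1 encodes the sensor of left-handed Z-form nucleic acid that can start necroptosis through RIPK3 and MLKL (chr2:173206612-173218923, minus strand, 8 exons). Its level was 4.39 and 12.7 RPKM with PBS, 6.54, 8.46 and 24.3 with the inhibitor, 16.2 and 9.26 with the antibody, and 14.3, 49.2 and 49.9 with the combination. Every combination library lay above both PBS libraries, by 4.41-fold between the means, but combination replicate 1 lay below antibody replicate 1. Eif2ak2 encodes PKR, the kinase that stops translation when it binds double-stranded RNA (chr17:78852564-78882573, minus strand, 16 exons). Eif2ak2 stood at 19.3 and 30.5 RPKM with PBS, 16.1, 18.3 and 31.2 with the inhibitor, 24.1 and 23.8 with the antibody, and 21.7, 52.7 and 45.8 with the combination. Combination replicate 1 lay inside the PBS range, and only the other combination libraries and inhibitor replicate 3 exceeded both PBS values.

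Adar encodes ADAR1, the adenosine deaminase that edits double-stranded RNA and so keeps self RNA from activating MDA5, PKR and ZBP1 (chr3:89715022-89753446, plus strand, 16 exons). It stood at 5.47 and 8.62 RPKM with PBS, 4.02, 4.72 and 11.1 with the inhibitor, 7.48 and 7.61 with the antibody, and 7.29, 14.3 and 13.2 with the combination. Its interferon-inducible and constitutive isoforms are not separated at gene level. The restraint and the sensors it restrains thus had the same 3 highest libraries: inhibitor replicate 3 and combination replicates 2 and 3 led for Ifih1, Dhx58, Tlr3, Zbp1, Eif2ak2 and Adar. That held for 6 of the 10 genes, and for 7.1% of the 19368 genes tested.

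Trex1, the exonuclease that clears cytosolic DNA (chr9:109057933-109059734, minus strand, 3 exons), was the flattest of the 10, varying 1.58-fold. It stood at 5.38 and 6.03 RPKM with PBS, 4.42, 6.02 and 4.70 with the inhibitor, 4.51 and 4.53 with the antibody, and 6.98, 6.15 and 6.28 with the combination. The 3 combination libraries were its 3 highest libraries, an order that 0.764% of the genes tested shared and none of the other members, and both antibody libraries lay below both PBS libraries. Its values are uncertain, because all 1147 of its bases are shared with a second entry on the same strand, Gm42641 (2.68 to 4.15 RPKM), and how shared reads were divided is not given in the sources used here.

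Other overlaps were on the opposite strand: Chrnb2 with Adar (1365 bases), Gm45542 with Tlr3 (381), Gm26637 and n-R5s29 with Eif2ak2 (174 and 47) and Dhx58os with Dhx58 (141). Whether reads were counted by strand is not given, so reads of these pairs may be mixed.

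Differences between groups were tested with limma on log2(RPKM + 0.5), fitted to the 19368 genes at 0.5 RPKM or more in at least 2 libraries, with Benjamini-Hochberg adjustment within each contrast. None of the 10 genes passed an adjusted p of 0.05 in any of 7 contrasts (0 of 10 in each, against 0 of 19368 genes, or 0.0%), and voom weights on the recovered reads, fitted by limma, also called 0. At an unadjusted p under 0.05 limma and voom each counted 2 of the 10 genes for the combination against PBS, where 3.54% of all genes fell under that level by limma. They counted 2 for the combination against the antibody (5.55% of all genes) and 2 for the combination against the inhibitor (8.03%). For the inhibitor against PBS they counted 1 (5.35%), and 1 for the interaction (5.62%). For the antibody against PBS (8.65%) and the averaged inhibitor effect (4.91%) they counted 0.

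Against PBS, the combination had higher fitted means for 9 of the 10 genes, with a median difference of 0.66 log2 units beside -0.05 over all genes tested. Zbp1 had the largest difference, 2.05 ± 0.73 (SE; unadjusted p = 0.022), and Dhx58 followed with 1.78 ± 0.65 (unadjusted p = 0.024); both had a limma adjusted p of 1.0. Tlr9 differed by 1.18 ± 0.65, Ifih1 by 0.98 ± 0.54, Tlr3 by 0.66 ± 0.47, Adar by 0.66 ± 0.44, Eif2ak2 by 0.62 ± 0.42, Tlr7 by 0.37 ± 0.48 and Trex1 by 0.17 ± 0.17. Mavs was the exception at -0.22 ± 0.27, and at 0.22 without PBS replicate 2. Groups did not overlap, with the combination above PBS, for 3 genes, Dhx58, Zbp1 and Trex1, against 4.45% of all genes tested, and with the combination below PBS for 0 (11.5%).

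Inhibitor alone against PBS gave fitted means that were higher for 3 genes and lower for 7, with a median of -0.18 beside -0.20 over all genes. Dhx58 (0.54 ± 0.65) and Zbp1 (0.53 ± 0.73) had the highest differences, and without inhibitor replicate 3 they were -0.032 and -0.018. Mavs had the lowest, -0.61 ± 0.27 (unadjusted p = 0.048, limma adjusted p = 0.844). The group was not uniform: 9 of the 10 genes were higher in replicate 3 than in replicates 1 and 2 (all but Trex1), 8 of them higher than in both PBS libraries, while 6 were lower in replicates 1 and 2 than in both PBS libraries (Ifih1, Mavs, Tlr7, Tlr9, Eif2ak2 and Adar). No gene had non-overlapping groups, against 1.71% of all genes higher and 17.3% lower.

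The PD1 antibody against PBS gave a median of 0.22 beside -0.17 over all genes, and Tlr9 the largest difference, 1.10 ± 0.71 (limma adjusted p = 0.682). Zbp1 differed by 0.67 ± 0.80 and Tlr7 by 0.34 ± 0.52. Groups did not overlap for Tlr7 and Tlr9, which were higher (8.78% of all genes), and for Trex1, which was lower (34.8% of all genes).

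Where inhibitor was added to antibody, all 10 genes had higher means in the combination, with a median of 0.50 beside 0.12 over all genes. Dhx58 differed by 1.51 ± 0.65 (unadjusted p = 0.046) and Trex1 by 0.47 ± 0.17 (unadjusted p = 0.025), with a limma adjusted p of 0.891 for each. Zbp1 differed by 1.38 ± 0.73, Ifih1 by 0.76 ± 0.54 and Eif2ak2 by 0.63 ± 0.42, whereas Tlr9 (0.08 ± 0.65) and Tlr7 (0.03 ± 0.48) were near 0. Groups did not overlap for Dhx58, Mavs and Trex1, where 21.5% of all genes were separated in the same direction, and 0 of the 10 were separated the other way (5.1%).

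Adding antibody to inhibitor also gave higher means for all 10 genes, with a median of 0.83 beside 0.15 over all genes. Tlr9 (1.56 ± 0.58, unadjusted p = 0.026, limma adjusted p = 0.618) and Zbp1 (1.52 ± 0.66, unadjusted p = 0.047, limma adjusted p = 0.619) differed most. Only Mavs and Trex1 had groups that did not overlap, both higher (7.84% of all genes; 3.01% were lower), since inhibitor replicate 3 lay above combination replicate 1 for the other 8. With sample quality weights, which weigh down libraries far from their group, 9 of the 10 genes passed in this contrast, as did 50.1% of all genes tested. The contrasts given here share control libraries and are not independent of each other.

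Averaged over the arms with and without antibody, the inhibitor effect was higher for 7 genes and lower for 3, with a median of 0.18 beside -0.05 over all genes. It was 1.03 ± 0.46 for Dhx58 (unadjusted p = 0.053), 0.96 ± 0.52 for Zbp1, 0.41 ± 0.38 for Ifih1 and -0.14 ± 0.46 for Tlr9 (limma adjusted p from 0.966 to 0.977 over the 10). The interaction, which tests whether the inhibitor difference was larger with antibody than without, was above 0 for all 10 genes (median 0.70 beside 0.33 over all genes). Trex1 had the lowest p of these, 0.64 ± 0.24 (unadjusted p = 0.029, limma adjusted p = 0.777).

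**Figure D2:**
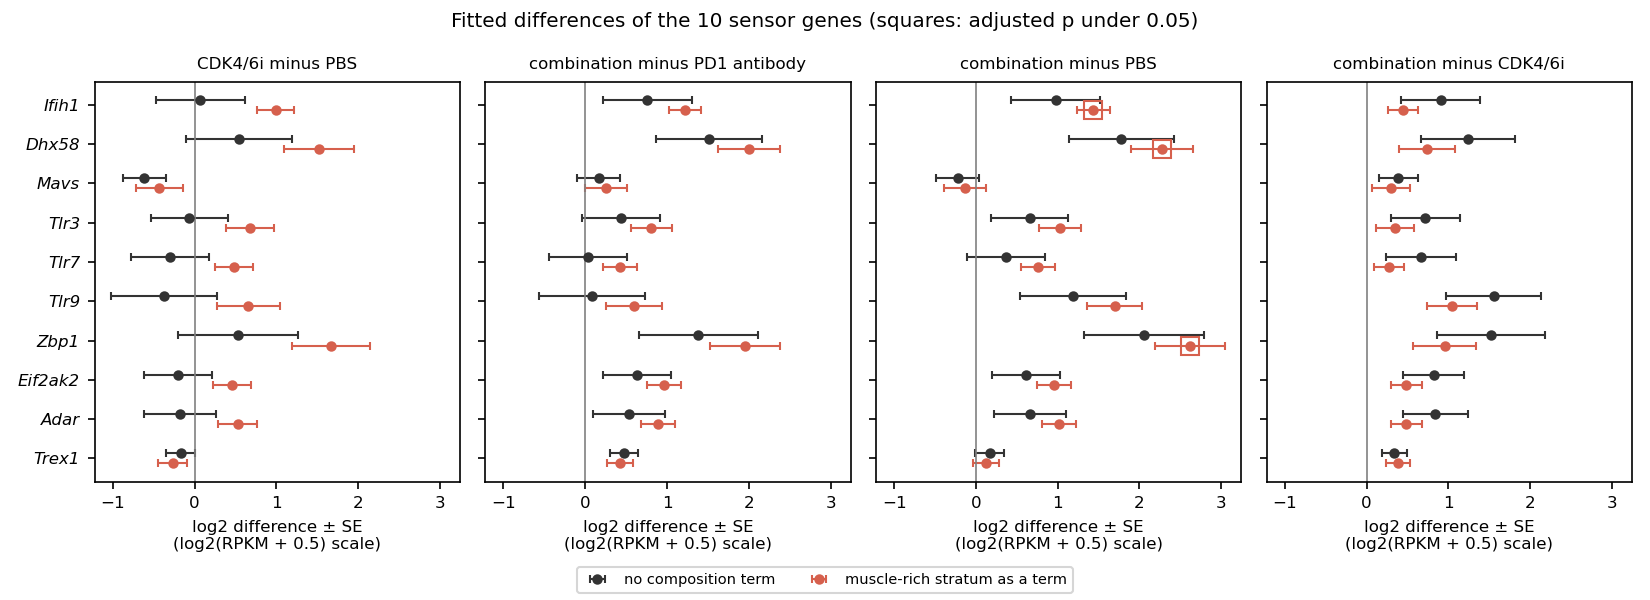
Fitted log2 differences ± SE of the 10 genes on the log2(RPKM + 0.5) scale in 4 contrasts, without a composition term (dark) and with a term for the muscle-rich libraries (red). Dark points pass no threshold; the squares mark Ifih1, Dhx58 and Zbp1 in the combination against PBS with the added term.

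Muscle-rich libraries were compared with each other, and the remaining libraries with each other, after the values had been seen. Among the muscle-rich, combination replicate 1 exceeded both inhibitor replicates 1 and 2 for all 10 genes; among the others, combination replicates 2 and 3 both exceeded inhibitor replicate 3 for all 10. Such an order in both strata held for 23.4% of the genes tested. The median ratio of combination to inhibitor over the 10 genes was 1.65 among the muscle-rich libraries and 1.39 among the rest, beside 1.06 and 1.09 over all genes. Tlr9 had the highest ratios, 6.02 and 2.46, and Zbp1 had 1.91 and 2.03. Dhx58 had 2.22 and 1.46, Ifih1 1.63 and 1.23, Adar 1.67 and 1.24, and Trex1 1.34 and 1.32. Tlr3 (1.05) in the muscle-rich libraries and Mavs (1.07) in the others were closest to 1. These ratios rest on 1 to 2 libraries a side and have no test.

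**Figure D3:**
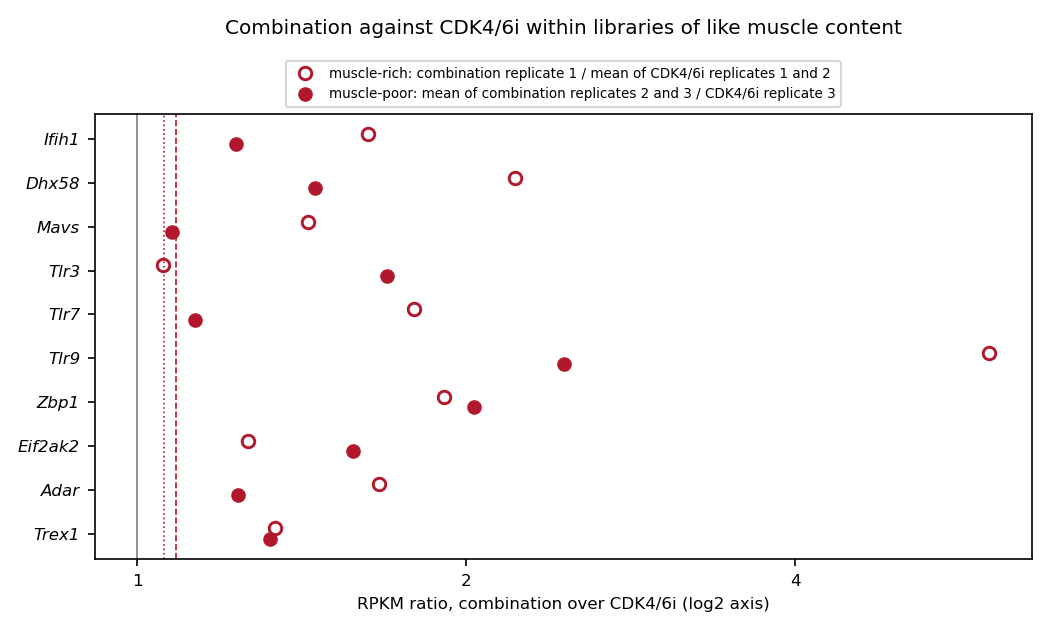
Ratio of RPKM in the combination to that under CDK4/6i (log2 axis) for each gene, among muscle-rich libraries (open) and among the others (filled); dotted and dashed lines are the medians over all genes tested, 1.06 and 1.09. All 20 points lie above 1, from 1.05 for Tlr3 to 6.02 for Tlr9.

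When a term for the muscle-rich libraries was added to the model, also after the values had been seen, 3 of the 10 genes rose in the combination against PBS. In the same contrast 0 of the 10 passed with the muscle list level as a covariate, with muscle and pancreas levels as covariates, or without the muscle-rich libraries. With the term, Ifih1 rose by 1.44 ± 0.20 (limma adjusted p = 0.026), Zbp1 by 2.62 ± 0.42 (0.0368) and Dhx58 by 2.27 ± 0.38 (0.0382), where 1.28% of all genes were called. Eif2ak2 (0.95 ± 0.21), Adar (1.01 ± 0.21) and Tlr9 (1.70 ± 0.34) did not pass, with limma adjusted p of 0.0805, 0.0675 and 0.0615. These calls rest on few libraries: in this model 0 of the 10 genes passed without inhibitor replicate 1, inhibitor replicate 2, combination replicate 2 or combination replicate 3. 1 passed without inhibitor replicate 3, combination replicate 1, PBS replicate 1 or antibody replicate 1, 2 without antibody replicate 2, and 7 without PBS replicate 2. For the averaged inhibitor effect in that model Ifih1 came closest, at 1.11 ± 0.16 (limma adjusted p = 0.0712, 0.114% of all genes called). Its inhibitor-alone difference there was 0.99 ± 0.23 (limma adjusted p = 0.238, 0.0% called), against 0.07 ± 0.54 without the term. No PBS or antibody library was muscle-rich, so the size of the term came from inhibitor-treated libraries alone. Of the inhibitor-alone libraries only replicate 3 lay above both PBS libraries for Ifih1 (8.04 RPKM against 2.82 and 4.27). With the term, Ifih1 differed by 1.22 ± 0.20 in the combination against the antibody (limma adjusted p = 0.0885, 0.114% called). In that model 0 of the 10 genes passed for the antibody against PBS (0.423% of all genes), the combination against the inhibitor (0.0%) and the interaction (0.0155%).

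Leukocyte and interferon-induced transcripts moved with the sensors across libraries. The mean log2 level of the 10 genes was 1.86 and 2.60 with PBS, 1.73, 1.85 and 2.89 with the inhibitor, 2.51 and 2.40 with the antibody, and 2.38, 3.44 and 3.35 with the combination. A list of 6 pan-leukocyte genes, none at 0 in any library, had levels of 2.27 and 3.02, then 1.77, 2.01 and 3.20, then 3.40 and 3.24, and then 2.60, 3.98 and 3.90 in the same order. Its summed RPKM ranged from 28.5 to 50.7 with PBS, 19.3 to 54.5 with the inhibitor, 57.1 to 65.4 with the antibody and 36.7 to 99.99 with the combination. The part of leukocyte content in the sensor values was not tested.

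**Figure D4:**
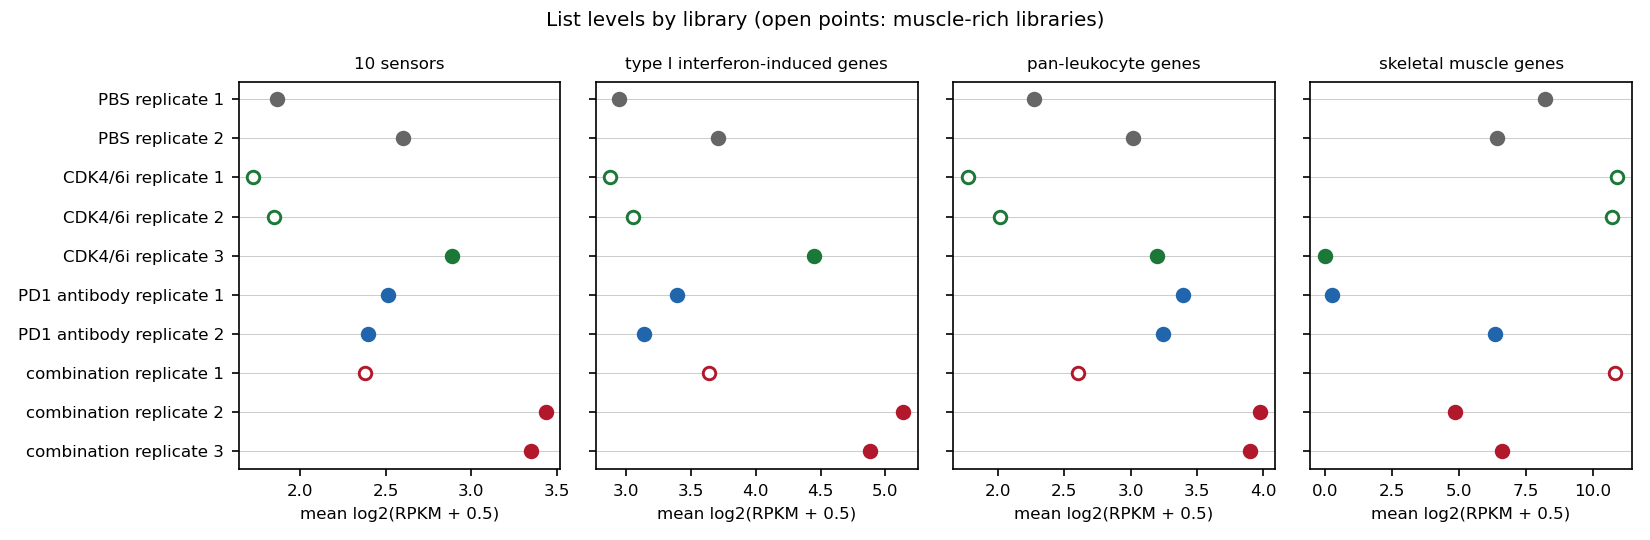
Mean log2(RPKM + 0.5) of the 10 sensors, 22 interferon-induced genes, 6 pan-leukocyte genes and 12 skeletal muscle genes in every library, with muscle-rich libraries as open points. Sensor level was highest in combination replicates 2 and 3 (3.44 and 3.35); the antibody libraries lay above PBS in leukocyte level (3.40 and 3.24 against 2.27 and 3.02) and inside the PBS range in interferon-induced level (3.39 and 3.14 against 2.95 and 3.71).

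Members differed in which of these levels they followed. As a description over the 10 libraries, which share their tissue and treatment differences, Tlr9 correlated with the pan-leukocyte level at r = 0.99 and with the interferon-induced level at 0.77, and Tlr7 at 0.89 and 0.72. For Dhx58 the order was the other way, 0.78 and 0.97, as for Zbp1, 0.86 and 0.96. Ifih1 (0.90 and 0.97), Eif2ak2 (0.91 and 0.95), Adar (0.94 and 0.94) and Tlr3 (0.93 and 0.92) were high on both. Mavs (0.54 and 0.45) and Trex1 (0.14 and 0.40) were low on both, and they were also least like the other members, at r = 0.55 and 0.28 with the mean of the rest, against 0.99 for Adar and 0.98 for Eif2ak2. Tlr7 and Tlr9 are classically abundant in plasmacytoid dendritic cells. Of the 9 markers listed for these cells none was at 0 in any library; Siglech reached 0.216 RPKM and Ccr9 0.206, while Ly6d reached 4.24, Lag3 4.07, Spib 1.99 and Runx2 1.79. The summed RPKM of that list ran from 99.6 to 116 with PBS, 113 to 445 with the inhibitor, 925 to 1856 with the antibody and 261 to 442 with the combination, carried mostly by Klk1 (up to 1797), Cox6a2 (up to 397) and Bst2 (up to 154). The 7 markers abundant enough to test, which leave out Siglech and Ccr9, all had higher means with the combination than with PBS or the inhibitor. Against the antibody 5 were higher and 2 lower, and 0 of the 7 passed adjustment. Their differences for the antibody against PBS ran from -3.83 to 10.9, beside medians of 10.7 for the exocrine pancreas list and -4.22 for the skeletal muscle list. Bst2 is also on the interferon-induced list, so these markers do not set plasmacytoid dendritic cells apart. Tlr9 correlated with the mean log2 level of the plasmacytoid dendritic cell list at r = 0.85 and Tlr7 at 0.73. They were at 0.97 and 0.93 for a macrophage list, 0.96 and 0.83 for T cells and 0.93 and 0.86 for B cells. For conventional dendritic cells the values were 0.87 and 0.69, for neutrophils 0.47 and 0.62, and for the exocrine pancreas list 0.80 and 0.73. The part of any of these cell types in the Tlr9 and Tlr7 values was not tested.

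Over the 10 libraries, the genes most like the mean of the 10 members were H2-T24 (r = 0.987), Parp9 (0.986), H2-M3 (0.982), Znfx1 (0.981) and Otulin (0.981). H2-T24 and H2-M3 belong to the nonclassical class I histocompatibility genes, Parp9 is an interferon-induced partner of DTX3L, and OTULIN removes linear ubiquitin chains. The closest gene to Ifih1 was Treml2 (0.987), to Dhx58 Oas3 (0.980), to Eif2ak2 Trim34a (0.983), to Adar Otulin (0.992) and to Zbp1 Olfr56 (0.979). Tlr9 was closest to Sash3 (0.995), a lymphocyte adaptor, Tlr3 to Nubp1 (0.981), Tlr7 to Fkbp15 (0.974), Mavs to Gm21969 (0.965) and Trex1 to Cyb5rl (0.914). Each value was picked as the highest among the 19368 genes tested other than the members, so it is high in part by selection. Overlaps with other entries were looked up for the members only, so reads of the genes named here, Olfr56 among them, may be shared.

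Other genes of the pathway were taken as lists, and none of their genes passed adjustment in any of the 7 contrasts. Of 27 further sensors, all 27 had higher means in the combination than under the inhibitor (median 0.65), 24 were higher than PBS (0.72) and 18 in the averaged inhibitor effect (0.10). Ddx58, which encodes RIG-I, stood at 7.73 ± 3.67 RPKM with PBS and 11.9 ± 5.42 with the combination, and the averaged inhibitor effect was 0.07 ± 0.41. Mb21d1, the DNA sensor cGAS, was low, at 0.510 to 1.77 RPKM over all libraries (averaged effect -0.11 ± 0.22). Aim2, the inflammasome DNA sensor, stood at 1.59 to 8.45 RPKM (0.01 ± 0.41).

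The sensors with the lowest p in the averaged effect were all interferon-inducible: Oas1a (1.02 ± 0.35) and Oas1g (1.01 ± 0.41), of the family that activates RNase L, Ifi205 (1.07 ± 0.42) and Ifit3 (1.31 ± 0.52). Their unadjusted p ran from 0.018 to 0.040 and their limma adjusted p was 0.921 for Oas1a and 0.966 for the others. Ifit3 shares sequence with a near copy, and Oas1a and Oas1g are close paralogs, so their counts may be split.

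Among 23 adaptors and signalling genes, 16 had a higher mean with the combination than with PBS (median 0.10) and 10 in the averaged inhibitor effect (-0.04). Irf7, the interferon-inducible factor that amplifies interferon genes, stood at 6.47 and 11.4 RPKM with PBS, 9.52, 9.85 and 44.9 with the inhibitor, 9.11 and 7.66 with the antibody, and 24.7, 60.4 and 47.8 with the combination. Its averaged effect was 1.56 ± 0.47 (unadjusted p = 0.010, limma adjusted p = 0.820), and the combination lay above all PBS and antibody libraries. Irf3, its constitutive relative, stood at 16.6 to 16.9 RPKM with PBS and 11.3 to 15.3 with the combination (-0.19 ± 0.13).

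Tmem173, which encodes STING, stood at 5.55 ± 0.718 RPKM with PBS and 8.49 ± 1.87 with the combination, with an averaged effect of 0.21 ± 0.19. Unc93b1, which carries the nucleic acid receptors of the toll-like family to the endosome, had an averaged effect of -0.24 ± 0.28, Myd88, the adaptor of TLR7 and TLR9, 0.19 ± 0.19, and Ticam1, the adaptor of TLR3, 0.25 ± 0.13. Mlkl, which executes the necroptosis that ZBP1 can start, had 0.54 ± 0.30, and Tbkbp1, a partner of the kinase TBK1, -0.39 ± 0.23. None passed adjustment.

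Nucleases and restraints split evenly, with 11 of 22 tested genes higher and 11 lower in the averaged effect. Isg15 (1.17 ± 0.39) and Usp18 (0.94 ± 0.45), both interferon-induced, were on the higher side, as was Rnaset2a (0.26 ± 0.12), a lysosomal RNase with a near-identical copy. Adarb1, the other catalytically active adenosine deaminase of RNA, was on the lower side (-0.38 ± 0.15) while Adar stood at 0.18 ± 0.31. Of 13 genes around PKR and the integrated stress response, 5 were higher in the combination than PBS and 8 lower (median -0.06). In the averaged effect Atf4, the central transcription factor of that response, was 0.34 ± 0.13, and its target Asns, asparagine synthetase, was -0.86 ± 0.28, with 14.7 and 8.82 RPKM in the antibody libraries against 2.19 to 5.70 in the others. The antibody libraries were also those richest in exocrine pancreas transcripts, and the part of pancreas in that value was not tested. Eif2ak3, the stress kinase PERK, was -0.58 ± 0.24, and Tarbp2, a binding protein that inhibits PKR, 0.20 ± 0.13.

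Of 13 interferon and interferon receptor genes named, 8 had values, and Ifnb1 and Ifng were the only interferons among these. Ifnb1 transcripts were scarce. Ifnb1 had 2 reads in antibody replicate 2 and 2 in combination replicate 2 (0.0779 and 0.0793 RPKM) and 0 in the other 8 libraries, where 3 reads are the limit that a count of 0 allows, for counting error only. Ifng stood at 0 and 0.334 RPKM with PBS, 0, 0 and 0.0576 with the inhibitor, 0.552 and 0.411 with the antibody, and 0.112, 1.03 and 1.49 with the combination. Of 8 interferon and receptor genes with values, 7 were abundant enough to test, and Ifngr1, a chain of the interferon gamma receptor, had an averaged effect of -0.24 ± 0.24. Downstream, 22 of 22 type I interferon-induced genes had higher means with the combination than with PBS (median 1.23), the antibody (1.30) and the inhibitor (1.05), and 15 of 22 in the inhibitor against PBS (0.09). The lowest p in the averaged effect were those of Ifi35 (0.49 ± 0.11, unadjusted p = 0.002, limma adjusted p = 0.699), Rtp4 (0.90 ± 0.24), Bst2, the tethering factor tetherin (0.85 ± 0.27), and Irf7. Irf7 is also on the list of adaptors and signalling genes. The pathway lists thus share genes, and their counts are not independent of each other.

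The enzymes that silence retroelements were examined because CDK4/6 inhibition is known to lower DNMT1 in tumour cells through the E2F factors. All 15 repeat-silencing genes had lower means under the inhibitor than PBS (median -0.31 beside -0.20 over all genes), all 15 were higher in the combination than under the inhibitor (0.26 beside 0.15), and 14 were lower in the averaged effect (-0.17). Dnmt1, the maintenance DNA methyltransferase, stood at 15.2 and 27.7 RPKM with PBS, 14.8, 13.6 and 26.5 with the inhibitor, 24.2 and 23.6 with the antibody, and 16.3, 29.5 and 28.1 with the combination. Inhibitor replicate 3 and combination replicates 2 and 3, the libraries highest in most sensors, exceeded both antibody libraries in Dnmt1. In combination replicates 2 and 3 it lay above both PBS libraries, and in inhibitor replicate 3 between them. In inhibitor replicates 1 and 2 it lay below both PBS libraries. The part of Dnmt1 in the sensor values was not tested. The averaged effect of Dnmt1 was -0.11 ± 0.27. Uhrf1, which guides DNMT1 to replicated DNA, had -0.26 ± 0.26, Dnmt3a -0.30 ± 0.22, and the histone methyltransferase genes Suv39h2 and Ehmt1 -0.17 ± 0.12 and -0.32 ± 0.26. Mphosph8, part of the HUSH silencing complex, had -0.20 ± 0.17.

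Of 16 E2F target and proliferation genes, 15 were lower under the inhibitor than PBS (median -0.28 beside -0.20 over all genes) and 11 in the averaged effect (-0.06 beside -0.05). Rrm2, a subunit of ribonucleotide reductase, had the lowest p (-0.37 ± 0.16, unadjusted p = 0.047, limma adjusted p = 0.966), followed by Mki67 (-0.41 ± 0.18) and Top2a (-0.35 ± 0.22). Mki67 stood at 53.4 ± 14.0 RPKM with PBS, 39.3 ± 7.09 with the inhibitor, 58.1 ± 0.0761 with the antibody and 45.0 ± 10.4 with the combination. Of the 16 genes, 9 were higher and 7 lower in the combination than PBS (median 0.02 beside -0.05 over all genes). Against the inhibitor, 15 were higher in the combination (0.31 beside 0.15).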

How the data were processed

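Bulk RNA of 10 tumour samples was measured. The authors deposited one table of RPKM values per gene; per the submitters' processing notes the build was GRCm38 (mm10), with aligner, counting program, annotation and strandedness of counting not given in the sources used here. Per the labels' protocols, stranded mRNA libraries were sequenced, with 2 kits named and no sample assigned to either. Groups followed the treatment label, and for the combination the titles, because the treatment text of replicates 2 and 3 carries other antibody numbers. RPKM times length gave whole reads for 100% of values in every library (tolerance 1e-06), and their sums are the depths. Counts of the 8 replicate pairs were far apart for sampling noise alone (chi-square per gene 22.7 to 518).

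log2(RPKM + 0.5) of genes at 0.5 RPKM or more in at least 2 samples was fitted with limma 3.58.1 (R 4.3.3): 4 group means, all 10 samples, trend and robust empirical Bayes, Benjamini-Hochberg within a contrast. A difference on this scale understates that of low genes. Members, lists and tests were chosen with earlier results of these data known. Named were all members, per list up to 4 genes of lowest p in the averaged inhibitor effect and preset pathway genes, and the genes most correlated with the members. Alternatives were 2 other pseudocounts, 2 filters, 2 scalings, no trend, only the groups compared, a replicate block, voom on 21143 genes, sample weights, muscle and pancreas covariates, and leaving out libraries. Spans matched GENCODE M21; figures used matplotlib 3.10.9.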

Additional observations from a re-analysis of the deposited data

How the results depend on the processing

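Of 42 single-gene differences recomputed under 25 settings (1042 values), 1011 kept direction and side of the threshold, 19 changed sign and 12 newly passed. Leaving out each library in turn called 0 of the 10 genes in each contrast, and gave medians of -0.47 to 0.17 for the inhibitor against PBS, -0.16 to 0.46 for the antibody, 0.04 to 0.36 for the averaged effect, 0.59 to 1.20 for the combination against the inhibitor, 0.38 to 1.06 against PBS, 0.38 to 0.87 against the antibody and 0.36 to 1.05 for the interaction.

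Leaving out the 3 muscle-rich libraries left inhibitor replicate 3 as the only library of the inhibitor alone. The median was then 0.62 for the inhibitor against PBS and 0.69 for the averaged effect. With the muscle-rich term and all libraries it was 0.59 and 0.71, with 3 genes past the threshold in the combination against PBS. With the muscle covariate the antibody median was -0.28. With muscle and pancreas covariates it was -1.05, that of the combination against the antibody 1.25 and that of the interaction 1.70. With sample quality weights 9 of the 10 genes passed in the combination against the inhibitor, but so did 50.1% of all genes; medians were 1.41 there and 1.34 for the interaction.

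Signs changed for the inhibitor against PBS in Dhx58 (-0.032 without inhibitor replicate 3, -0.10 without PBS replicate 1, up to 1.185 on leaving out 1 library), Zbp1 (-0.018 and -0.19, up to 1.249), Ifih1 (-0.45 and -0.19, up to 0.38, -0.12 with muscle and pancreas covariates, -0.37 with weights) and Tlr9 (0.22 without PBS replicate 2, down to -0.96 without PBS replicate 1, 0.65 without the muscle-rich libraries, 0.66 with their term). For the antibody they changed in Zbp1 (-1.174 with both covariates, -0.071 with muscle, -0.053 without PBS replicate 1 and 1.386 without PBS replicate 2) and Tlr9 (-0.60 with both), and for the combination against PBS in Tlr3 (-0.084) and Tlr7 (-0.32) with both covariates and Mavs (0.22 without PBS replicate 2, -0.66 without PBS replicate 1). The causes were not tested. With the replicate number as a block, Ifih1 had -0.27 for the inhibitor against PBS and 0 of the 10 genes passed. Deviations from group means correlated at r -0.45 to 0.62 over 13 same-numbered pairs (median 0.02). Over 24 other pairs r ran from -0.67 to 0.575 (median -0.12). Centring groups of 2 or 3 libraries fixes part of these values, so whether the numbers mark a pairing was not settled.

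Median-ratio and quantile scaling bring the all-gene medians, as far as -0.20 and 0.33, to about 0. All-gene counts ranged from 0 to 118 for the inhibitor and 0 to 248 for the combination against PBS. Groups of 2 or 3 libraries, and 12 to 410 reads for Tlr9, limit precision.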
